A study of Mus musculus with 12 samples.

Results

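MAP kinase phosphatases switch off the MAP kinases, and 5 of their genes were followed here through CpG stimulation of mouse neutrophils with and without Rab27a. The genes were taken from a list of names, Dusp1, Dusp2, Dusp5, Dusp6 and Dusp16, which was chosen with earlier results of these data known. They were matched by gene ID among the 15986 genes of the files. All 5 were found, and all 5 passed the filter on low counts that left 10802 genes to test. The study measured polyA RNA by sequencing in mature neutrophils taken from mouse bone marrow on beads carrying an antibody to Ly6G, a neutrophil surface protein. Strain C57BL/6 is given for every library, while age, sex and the knockout allele are not stated. The 4 groups of 3 libraries were Rab27aKO neutrophils given 5 µM of the oligonucleotide ODN 1826, a CpG-B, over 6 h at 37 °C, Rab27aKO neutrophils kept as long without it, and wild-type neutrophils handled in these same ways. The cells without CpG are described as vehicle-treated in one place and as untreated in another, and they are called unstimulated here. CpG-B is a synthetic DNA that activates the endosomal receptor TLR9, and Rab27a is a small GTPase of granule and endosome traffic that neutrophils use to release their granules.

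MAP kinases such as ERK, JNK and p38 carry signals from receptors, TLR9 among them, to the nucleus and to the control of cytokine messenger RNAs. They are active while a threonine and a tyrosine in their activation loop are phosphorylated, and MAP kinase phosphatases are dual-specificity enzymes that remove both phosphates. Several of their genes are themselves induced by MAP kinase signalling, which closes a negative feedback loop. Dusp1 (MKP-1), Dusp2 (PAC-1) and Dusp5 are nuclear and inducible. Dusp1 acts mainly on p38 and JNK and is known for limiting cytokine production in mouse macrophages, Dusp2 was first found in activated T cells, and Dusp5 acts on ERK. Dusp6 (MKP-3) is cytoplasmic and acts on ERK. Dusp16 (MKP-7) is mainly cytoplasmic and acts on JNK and p38.

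Promoter sequences are shown for the 2 pairs of genes that the results turn on, Dusp1 and Dusp5, which were higher in unstimulated knockout cells, and Dusp2 and Dusp16, which rose with CpG. Each runs 5′ to 3′ on the strand of the gene, from 250 bases before to 50 bases after the start site, and comes from RefSeq on build GRCm38.p6, where all 5 members were matched by symbol. The stretches are chr17:26508423-26508722 on the minus strand for Dusp1, chr19:53528895-53529194 on the plus strand for Dusp5, chr2:127335909-127336208 on the plus strand for Dusp2 and chr6:134792579-134792878 on the minus strand for Dusp16. Capitals mark the motifs that a search of both strands found.
Dusp1 promoter: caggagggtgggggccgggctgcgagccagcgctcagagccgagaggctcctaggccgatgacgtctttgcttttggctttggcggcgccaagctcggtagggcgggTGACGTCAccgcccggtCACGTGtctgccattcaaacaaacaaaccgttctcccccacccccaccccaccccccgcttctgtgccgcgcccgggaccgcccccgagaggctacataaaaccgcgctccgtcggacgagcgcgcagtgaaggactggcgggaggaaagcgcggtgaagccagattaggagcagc
Dusp5 promoter: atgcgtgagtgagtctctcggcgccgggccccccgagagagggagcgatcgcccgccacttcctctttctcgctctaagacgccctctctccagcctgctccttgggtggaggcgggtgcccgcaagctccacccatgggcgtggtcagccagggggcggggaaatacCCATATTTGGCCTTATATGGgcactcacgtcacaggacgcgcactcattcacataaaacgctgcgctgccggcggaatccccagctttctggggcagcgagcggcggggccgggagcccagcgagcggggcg
Dusp2 promoter: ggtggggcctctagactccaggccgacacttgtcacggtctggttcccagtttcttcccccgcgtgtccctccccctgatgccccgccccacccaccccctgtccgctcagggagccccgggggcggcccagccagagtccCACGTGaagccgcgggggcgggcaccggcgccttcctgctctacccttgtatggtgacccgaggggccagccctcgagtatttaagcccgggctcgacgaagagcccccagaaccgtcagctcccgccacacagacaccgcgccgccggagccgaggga
Dusp16 promoter: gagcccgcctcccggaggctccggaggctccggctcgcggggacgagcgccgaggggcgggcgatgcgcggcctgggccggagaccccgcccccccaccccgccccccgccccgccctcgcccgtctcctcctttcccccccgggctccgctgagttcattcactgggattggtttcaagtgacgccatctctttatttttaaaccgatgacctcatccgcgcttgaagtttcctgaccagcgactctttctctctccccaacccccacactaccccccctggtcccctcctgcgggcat
In Dusp1 the capitals are a cAMP response element (TGACGTCA), which begins 143 bases before the start site, and an E-box (CACGTG), which begins 126 bases before it. In Dusp5 they are adjoining CArG boxes, the sites of serum response factor, which begin 82 and 72 bases before the start site. In Dusp2 they are an E-box that begins 109 bases before the start site. Among 32851 mouse promoters of this length, 1.79% held the cAMP response element, 7.15% the E-box and 1.63% a CArG box, and 6 promoters (0.0183%) held at least 2 CArG boxes. The AP-1 site (TGANTCA) and the NF-kB site were also searched, and occurred in 7.81% and 6.93% of promoters. Neither was in the windows of the 5 members, and the Dusp16 and Dusp6 windows held none of the 5 motifs. These matches describe letters and say nothing of what binds there.

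The libraries held 10928813 to 15513279 estimated counts. Levels are given in CPM, counts per 1000000 counts of the scaled library. Rab27a itself averaged 113 CPM in unstimulated knockout libraries and 272 CPM in unstimulated wild-type libraries, a log2 fold change of -1.26, against -1.14 between the CpG-treated groups. Rab27a counts were thus lower but present in the knockout libraries. Both genotypes responded to CpG, with log2 fold changes of 3.36 for the cytokine gene Tnf and 3.09 for the NF-kB inhibitor gene Nfkbia in knockout cells, and 2.76 and 2.48 in wild-type cells. All 10 neutrophil markers were detected in every group. The knockout libraries stood apart from each other and from wild-type libraries in markers of other cells. Erythroid genes summed to 521 and 438 CPM (with CpG and without) in those numbered 1, and to 1650 and 1820 CPM in those numbered 2. They summed to 6060 and 5960 CPM in those numbered 3, against 3950 to 5200 CPM over the 6 wild-type libraries. That sum includes the globin gene Hbb-bt, which stood at 0.615 to 6.96 CPM in all knockout libraries and at 308 to 453 CPM in wild-type libraries. In the same order of libraries, promyelocyte and progenitor genes summed to 43.4 and 33.0, 112 and 119, and 292 and 366 CPM, against 122 to 208 CPM in wild-type libraries. B cell genes summed to 7.5 and 6.52, 34.6 and 29.1, and 103 and 92.6 CPM, against 26.5 to 43.0 CPM. Calls below were therefore also computed without both knockout libraries of each number in turn, which leaves 2 libraries in each knockout group, and the calls that this ended or added are named beside the gene. Summed CPM of 10 monocyte and macrophage markers, none of them at 0, also moved with the groups, at 1290 to 1660 in CpG-treated knockout, 546 to 626 in unstimulated knockout, 1200 to 1220 in CpG-treated wild-type and 721 to 745 in unstimulated wild-type libraries; the part of other cells in the results below was not tested. In RNA from bulk cells, fewer cells that express a gene and less RNA per cell cannot be told apart.

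CpG raised Dusp2 and Dusp16 in both genotypes, and lowered Dusp5 in knockout cells. Unstimulated knockout cells held more Dusp1 and Dusp5 than unstimulated wild-type cells, by 1.88-fold and 1.96-fold, and no member differed between the genotypes past the threshold after CpG. A gene was called changed where its p from the quasi-likelihood test of edgeR, adjusted by Benjamini-Hochberg over all 10802 genes, was at most 0.05; every adjusted p below is from that test unless another is named. The members were chosen with earlier results of these data known. The counts of members beside the shares of all genes are therefore a description and not a test of the set. In knockout cells CpG changed 3 of the 5 members, 2 higher and 1 lower, where 11.6% of all genes tested were called (7.57% higher and 4.06% lower). In wild-type cells it changed 2 of the 5, both higher, where 6.04% of genes were called (4.74% higher and 1.3% lower). Between unstimulated knockout and wild-type cells 2 of the 5 were called, both higher, where 4.75% of genes were called (2.11% higher and 2.64% lower). Without both knockout libraries numbered 2 these counts of called members were 0, 1 and 1, with estimates of the same direction for each gene called. Between CpG-treated knockout and wild-type cells edgeR called 0 of the 5, where 3.92% of genes were called (1.7% higher and 2.21% lower). Of the 5, 0 had an unadjusted p below 0.05, where 18.1% of all genes had one, and DESeq2 called 0 as well. The 2 members called higher with CpG in both genotypes, Dusp2 and Dusp16, stand beside 4.4% of all genes called so. Of the 10 monocyte and macrophage markers, 2 were called higher with CpG in each genotype and none lower. Libraries of the groups compared did not overlap for 4 of the 5 members with CpG in knockout cells (24.2% of all genes), 3 with CpG in wild-type cells (25.7%), 3 between unstimulated knockout and wild-type cells (25.0%) and 1 between CpG-treated knockout and wild-type cells (20.4%). The labels do not say whether a group's libraries came from separate animals, so the p-values reflect sample-to-sample spread that could be partly technical.

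**Figure D1:**
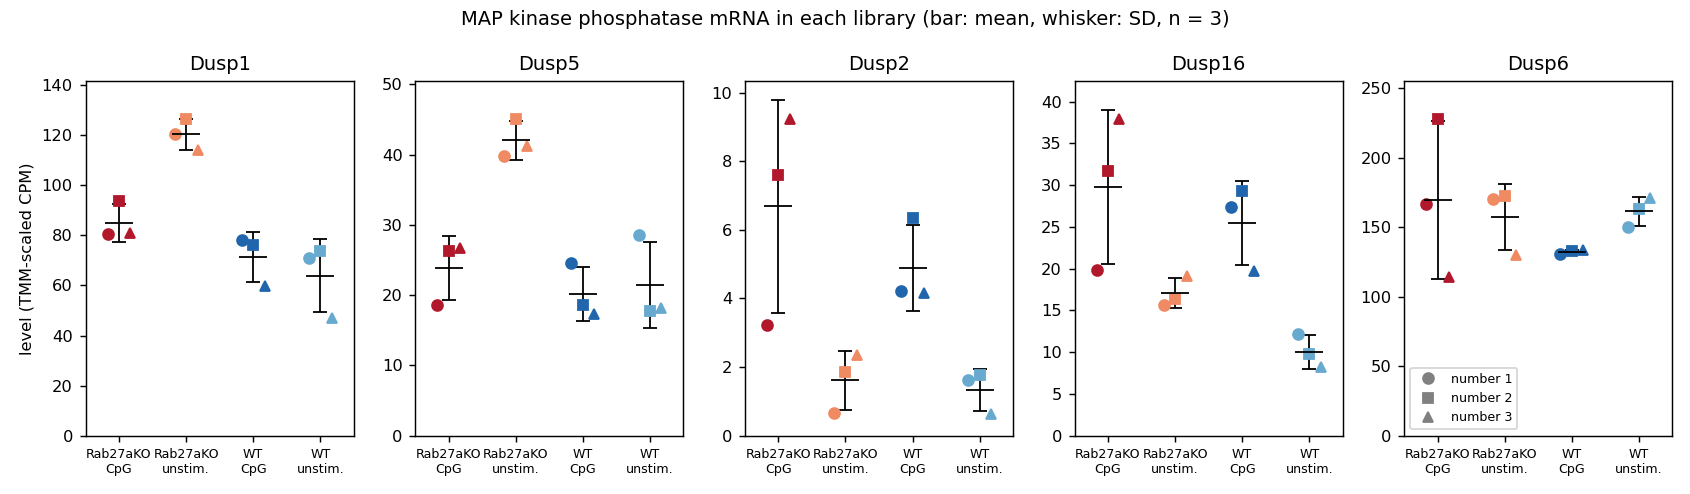
Level of each MAP kinase phosphatase gene in every library, in CPM, by group; points are libraries (the shape gives the library number), bars are group means and whiskers are SD (n = 3). Dusp2 and Dusp16 sit higher with CpG than without it in both genotypes, and the unstimulated knockout libraries stand above all 3 other groups for Dusp1 and Dusp5.

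Dusp1, the nuclear phosphatase of p38 and JNK, had its highest levels in unstimulated knockout cells. It stood at 120.5, 126.4 and 114.0 CPM in unstimulated knockout libraries and at 70.8, 73.8 and 47.1 CPM in unstimulated wild-type libraries. Every unstimulated knockout library was above every wild-type library of either treatment. The log2 fold change between unstimulated knockout and wild-type cells was 0.91 ± 0.16 (SE, adjusted p = 0.0035), and it stayed called without both knockout libraries of any number. With CpG, Dusp1 stood at 80.5, 93.8 and 80.9 CPM in knockout libraries and at 78.1, 76.0 and 59.7 CPM in wild-type libraries. These groups did not overlap, but the log2 fold change of 0.25 ± 0.16 was not called (adjusted p = 0.432, 95% interval -0.09 to 0.59). Within knockout cells all CpG-treated libraries lay below all unstimulated ones. The log2 fold change of -0.50 ± 0.16 missed the threshold in the fit without pairing (adjusted p = 0.0583). It passed in 7 of 13 other ways of fitting the data. Among them were DESeq2 (adjusted p = 0.0223) and edgeR with the same-numbered libraries of a genotype as a block (adjusted p = 0.000635). It also passed without unstimulated wild-type library 2 or 3 or CpG-treated wild-type library 3 (adjusted p between 0.012 and 0.0441). Within wild-type cells the log2 fold change with CpG was 0.16 ± 0.16 (adjusted p = 0.756), and the groups overlapped. Taken by library number, the Dusp1 log2 differences with CpG were -0.58, -0.43 and -0.49 in knockout cells and 0.14, 0.04 and 0.34 in wild-type cells. Dusp1 overlaps the gene Ergic1 on the opposite strand, and the sources used here do not say whether reads were counted by strand. Ergic1, an ER and Golgi protein gene, averaged 10.6 CPM in CpG-treated and 18.9 CPM in unstimulated knockout libraries (log2 fold change -0.83, adjusted p = 0.00796), and its log2 fold change between unstimulated knockout and wild-type cells was 0.22 (adjusted p = 0.588).

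Dusp2, the inducible phosphatase of activated lymphocytes, was the least abundant member and had the largest log2 fold changes of the 5 with CpG. In knockout cells it stood at 3.23, 7.59 and 9.23 CPM with CpG (37, 111 and 118 estimated counts) and at 0.661, 1.85 and 2.35 CPM without it (7, 21 and 28 counts). In wild-type cells it stood at 4.20, 6.35 and 4.15 CPM with CpG (56, 83 and 48 counts) and at 1.62, 1.76 and 0.641 CPM without it (19, 24 and 8 counts). In each genotype every CpG-treated library was above every unstimulated library, although the knockout library numbered 1 was low in both treatments. The rise was 4.09-fold in knockout cells (log2 2.03 ± 0.47, adjusted p = 0.0115) and 3.63-fold in wild-type cells (log2 1.86 ± 0.48, adjusted p = 0.0355). At these counts the wild-type call was not firm: it was lost when any of the 6 wild-type libraries was left out, and without knockout library 2 of either treatment, with adjusted p between 0.0556 and 0.16. The knockout call held when each library was left out in turn. Without both knockout libraries numbered 2 the adjusted p was 0.11 in knockout cells (log2 2.03) and 0.0789 in wild-type cells (log2 1.86), so that neither was called. Between the genotypes the log2 fold change was 0.28 (adjusted p = 0.851, 95% interval -0.85 to 1.41) without CpG and 0.45 (adjusted p = 0.634, 95% interval -0.47 to 1.37) with it. The upper ends of those intervals are 2.66-fold and 2.59-fold.

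Dusp5, the nuclear phosphatase of ERK, was likewise higher in unstimulated knockout than in unstimulated wild-type cells. Unstimulated knockout libraries held 39.8, 45.1 and 41.2 CPM, against 28.5, 17.7 and 18.1 CPM in unstimulated wild-type libraries. The groups did not overlap, and the log2 fold change was 0.97 ± 0.20 (adjusted p = 0.0109). It was lost without unstimulated wild-type library 3 (adjusted p = 0.0546) or unstimulated knockout library 2 (adjusted p = 0.0576), and without both knockout libraries numbered 2 (log2 0.92, adjusted p = 0.0713), and held without both numbered 1 or 3. With CpG, knockout libraries held 18.7, 26.3 and 26.7 CPM and wild-type libraries 24.5, 18.6 and 17.4 CPM, which overlapped (log2 fold change 0.25 ± 0.20, adjusted p = 0.562). Dusp5 fell 1.75-fold with CpG in knockout cells (log2 -0.81 ± 0.20, adjusted p = 0.015), where CpG-treated and unstimulated libraries did not overlap. That call was lost without both knockout libraries numbered 1 (log2 -0.72, adjusted p = 0.0794) or both numbered 2 (log2 -0.83, adjusted p = 0.103), and also without CpG-treated knockout library 1 alone (adjusted p = 0.0502) or unstimulated knockout library 2 alone (adjusted p = 0.0663). In wild-type cells the log2 fold change was -0.08 (adjusted p = 0.93, 95% interval -0.52 to 0.35).

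Dusp6, the cytoplasmic ERK phosphatase, had the highest CPM of the 5 in every group and was not called in any comparison. It stood at 166.8, 227.7 and 114.1 CPM in CpG-treated knockout libraries, and at 170.0, 172.2 and 129.8 CPM in unstimulated knockout libraries. In wild-type cells it stood at 131.0, 132.7 and 133.3 CPM with CpG and at 150.2, 163.2 and 170.6 CPM without it. The CpG-treated wild-type libraries lay close together and below all unstimulated wild-type libraries, whereas the knockout groups were spread and overlapped. The log2 fold change with CpG was 0.11 ± 0.19 (adjusted p = 0.826, 95% interval -0.31 to 0.52) in knockout cells and -0.29 ± 0.19 (adjusted p = 0.552, 95% interval -0.70 to 0.13) in wild-type cells. Between CpG-treated knockout and wild-type cells it was 0.36 ± 0.19 (adjusted p = 0.354), but it passed without both knockout libraries numbered 3 (0.59, adjusted p = 0.0165) or without only the CpG-treated library of that number (0.60, adjusted p = 0.0271). Between unstimulated knockout and wild-type cells it was -0.04 (adjusted p = 0.957).

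Dusp16, the phosphatase of JNK and p38, rose with CpG in both genotypes. In wild-type cells it stood at 27.4, 29.3 and 19.8 CPM with CpG and at 12.2, 9.77 and 8.18 CPM without it. That is a rise of 2.54-fold (log2 1.35 ± 0.23, adjusted p = 0.00255), which stayed called in all 13 alternative settings and with each of the 12 libraries left out in turn. In knockout cells it stood at 19.8, 31.7 and 37.9 CPM with CpG and at 15.7, 16.4 and 19.2 CPM without it, so that the library numbered 1 in the CpG group was barely above the highest unstimulated library. The rise there was 1.74-fold (log2 0.80 ± 0.22, adjusted p = 0.0333). It was lost without both knockout libraries numbered 3 (log2 0.67, adjusted p = 0.156) or both numbered 2 (log2 0.73, adjusted p = 0.249), and when any of 7 single libraries was left out (all 3 unstimulated knockout libraries, CpG-treated knockout libraries 2 and 3, CpG-treated wild-type library 1 or unstimulated wild-type library 2), with adjusted p between 0.0535 and 0.148. Unstimulated knockout libraries were all above unstimulated wild-type libraries, with a log2 fold change of 0.77 ± 0.23 that was not called (adjusted p = 0.0889); it was called by DESeq2 (adjusted p = 0.0301) and without CpG-treated knockout library 1 (adjusted p = 0.0295). After CpG the genotypes overlapped (log2 fold change 0.23, adjusted p = 0.647). Its count was summed over 4 transcripts, of which the main one held 73.54% to 100% of the count in each library.

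**Figure D2:**
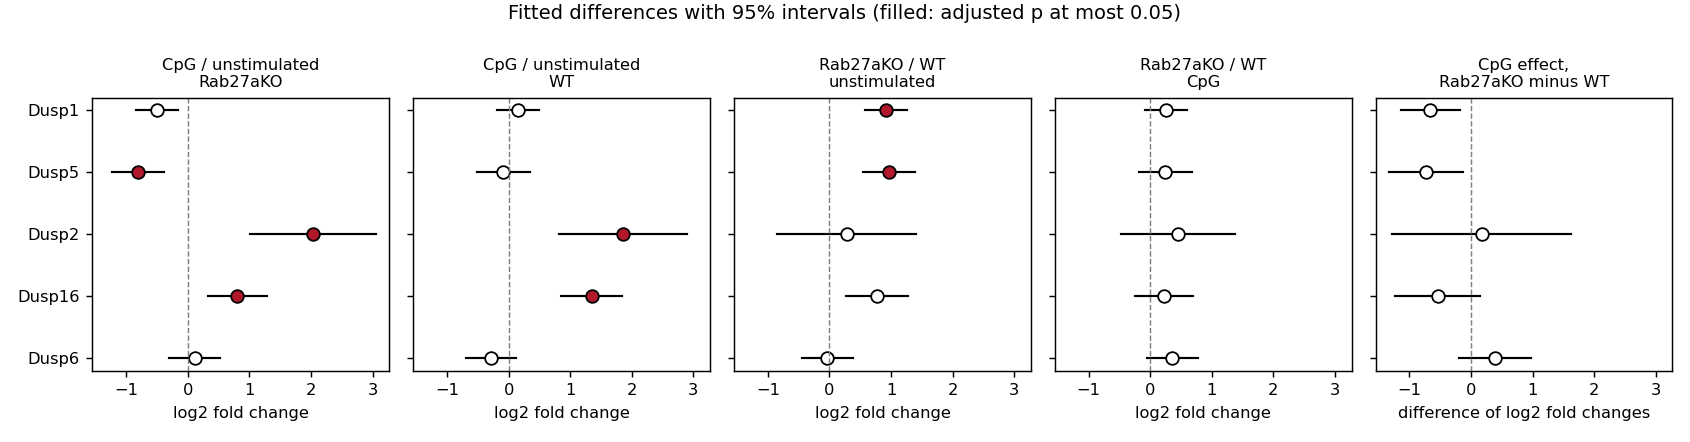
Log2 fold change of each MAP kinase phosphatase gene in the 4 comparisons, and the difference of its CpG effect between knockout and wild-type cells, with 95% intervals from the fit over all 12 libraries; filled symbols are called at an adjusted p of at most 0.05. The CpG effects of Dusp2 and Dusp16 lie above 0 in both genotypes, and the genotype effects of Dusp1 and Dusp5 lie above 0 in unstimulated cells, with intervals that hold 0 after CpG.

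Whether CpG acted differently in the 2 genotypes was tested directly, as the CpG log2 fold change in knockout cells minus that in wild-type cells. For Dusp1 this difference was -0.66 ± 0.22 (95% interval -1.14 to -0.18, unadjusted p = 0.0111), and for Dusp5 it was -0.73 ± 0.28 (95% interval -1.33 to -0.12, unadjusted p = 0.0219). Neither passed the adjustment (adjusted p = 1.0 for both in edgeR's quasi-likelihood test). Neither passed in any of 12 alternative settings, fitted in edgeR or DESeq2, and both kept their direction in all of them. The lowest adjusted p among those settings was 0.057 for Dusp1 and 0.0997 for Dusp5. For Dusp2, Dusp6 and Dusp16 the differences between genotypes were 0.17, 0.39 and -0.54, each with an interval that held 0. No gene of the 10802 was called in this test by the edgeR fit without blocks. In that fit 365 genes (3.38%) had an unadjusted p below 0.05, 2 of the 5 members among them. DESeq2 called 3 genes, and edgeR with the same-numbered libraries of a genotype as a block called 13 genes, with no member in either. The difference in response was thus not established for any member.

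Compared in TPM, the share of a transcript per 1000000 transcripts, which corrects for transcript length, Dusp1 and Dusp6 were the abundant members, Dusp5 was intermediate, and Dusp16 and Dusp2 were scarce. In CpG-treated knockout, unstimulated knockout, CpG-treated wild-type and unstimulated wild-type cells Dusp1 averaged 65.4 ± 8.57, 99.5 ± 1.38, 54.9 ± 10.6 and 49.2 ± 12.6 TPM (SD, n = 3). In the same order of groups Dusp6 averaged 85.2 ± 27.8, 86.0 ± 8.99, 67.3 ± 3.59 and 81.8 ± 4.35 TPM. The order of these genes turned with the genotype: Dusp1 was above Dusp6 in all 3 unstimulated knockout libraries (97.9 to 100.3 TPM, against 75.7 to 91.8 TPM) and below it in all 3 unstimulated wild-type libraries (34.7 to 58.1 TPM, against 77.0 to 85.5 TPM). In CpG-treated knockout cells their ranges overlapped, and in CpG-treated wild-type cells Dusp1 was again below Dusp6. Dusp5 averaged 20.1 ± 5.14, 37.6 ± 2.33, 16.8 ± 3.76 and 17.8 ± 5.20 TPM over the 4 groups and lay between the abundant and the scarce members in every group. Dusp16 averaged 8.0 ± 2.93, 5.01 ± 0.829, 6.87 ± 1.73 and 2.69 ± 0.606 TPM, and Dusp2 averaged 6.54 ± 3.35, 1.67 ± 0.952, 4.67 ± 1.39 and 1.29 ± 0.609 TPM. The ranges of those 2 genes did not overlap in unstimulated cells of either genotype and overlapped after CpG in both. Within every library, however, Dusp2 was below Dusp16, with TPM ratios of 0.543 to 0.915 in the CpG-treated libraries. Dusp1 lay above 89.5% of the tested genes in mean TPM in unstimulated knockout cells and above 81.7% of them in unstimulated wild-type cells. The 5 members summed to 185 ± 37.7 and 230 ± 6.18 TPM in CpG-treated and unstimulated knockout cells, and to 150 ± 19.5 and 153 ± 15.6 TPM in CpG-treated and unstimulated wild-type cells.

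**Figure D3:**
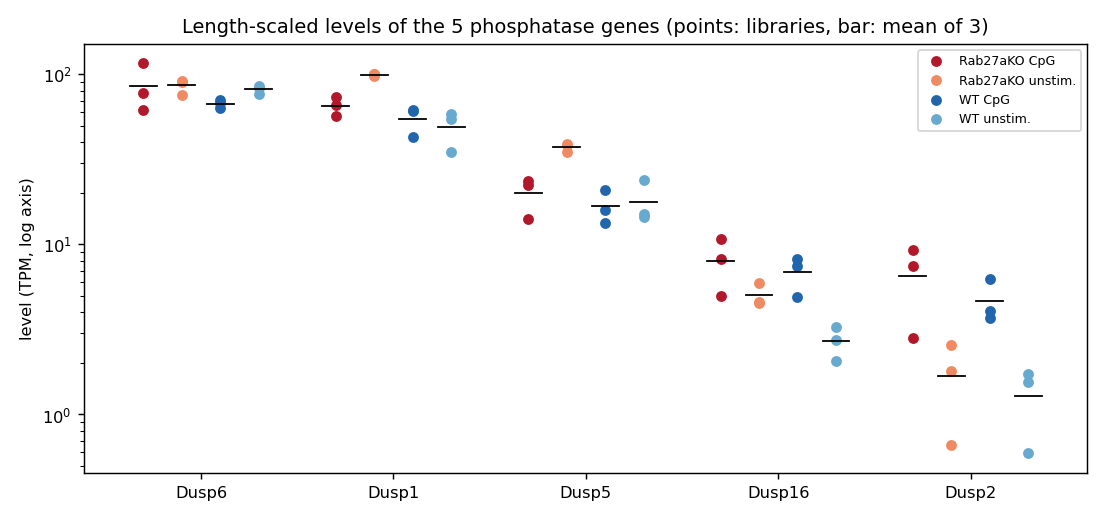
Level in TPM of the 5 members in each library, by group, on a log axis; points are libraries and bars are means of 3. Dusp1 stands above Dusp6 in unstimulated knockout libraries (97.9 to 100.3 against 75.7 to 91.8) and below it in unstimulated wild-type libraries (34.7 to 58.1 against 77.0 to 85.5).

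Across the 12 libraries the members fell into 2 pairs by the correlation of log2 CPM, given as a description, since the points share groups, and libraries of a number may share a source. Dusp1 and Dusp5 had a Pearson r of 0.85, and Dusp2 and Dusp16 an r of 0.88. The other pairs ranged from -0.29 to 0.31, and Dusp6 paired with none. Among 7914 genes averaging at least 5 CPM, those most like each member over the 12 libraries were as follows. Nt5dc3 (r = 0.954), Slc49a4 (0.941) and Mier3 (0.935) were most like Dusp1. Slamf7 (r = 0.964), a receptor of immune cells, Ifi211 (0.96), an interferon-inducible gene, and Cd83 (0.956), an activation marker of dendritic cells, were most like Dusp2. Tnfrsf23 (r = 0.947), a decoy receptor for TRAIL in mice, Pwwp2a (0.941), a chromatin protein gene, and the thrombospondin gene Thbs1 (0.924) were most like Dusp5. Csnk1g2 (r = 0.96), a casein kinase gene, Ppp3ca (0.936), a calcineurin subunit gene, and Mkrn2 (0.935) were most like Dusp6. Mreg (r = 0.966), the LPS co-receptor gene Cd14 (0.959) and Rasgef1b (0.951) were most like Dusp16. Cd14 averaged 376 CPM with CpG and 108 CPM without it in knockout cells, and 269 and 55.8 CPM in wild-type cells. Thbs1 averaged 4350 CPM with CpG and 8670 CPM without it in knockout cells, and 3300 and 4150 CPM in wild-type cells.

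The remaining genes of the MAP kinase pathway, 91 in 8 lists of which 70 could be tested, give the setting. CpG changed 16 of the 70 in knockout cells, 9 higher and 7 lower, with a median log2 fold change of -0.025 against -0.006 over all genes tested, of which 11.6% were called. It changed 11 of the 70 in wild-type cells, 8 higher and 3 lower, with a median of -0.001 against -0.007 over all genes, of which 6.04% were called. The wild-type count was 6 without unstimulated library 1, 7 without CpG-treated library 1 or CpG-treated library 3, and 7 without both knockout libraries numbered 2. With same-numbered libraries treated as a block, it was 23, and the count over all genes was 1824 in place of 652. Between knockout and wild-type cells 3 of the 70 were called without CpG (1 higher, 2 lower) and 3 with it, all lower, where 4.75% and 3.92% of all genes were called. These counts were 6 and 5 without CpG-treated knockout library 3, the count in unstimulated cells was 5 without CpG-treated knockout library 2, and over all alternatives they ranged from 0 to 6 and from 0 to 7.

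Among the other MAP kinase phosphatases, Dusp4, Dusp7, Dusp8 and Dusp10 could be tested and Dusp9 could not, with too few counts. CpG changed none of the 4 in knockout cells, where 2 had an unadjusted p below 0.05 (22.6% of all genes). It changed none of the 4 in wild-type cells, where 1 had such a p (16.3% of all genes). With same-numbered libraries as a block 2 of the 4 were called in wild-type cells, 1 higher and 1 lower. Dusp7, a cytoplasmic ERK phosphatase related to Dusp6, after CpG averaged 4.05 ± 1.98 CPM in knockout libraries and 9.31 ± 1.01 CPM in wild-type libraries (log2 fold change -1.19 ± 0.28, adjusted p = 0.0324). That call was lost when any CpG-treated wild-type library, CpG-treated knockout library 1 or 3, or unstimulated wild-type library 1 was left out (adjusted p between 0.0511 and 0.132), without both knockout libraries numbered 1 (0.0953), with only the libraries compared (0.112) and without predicted transcripts (0.0757). None of 6 atypical dual-specificity phosphatases was called in any comparison. For CpG in either genotype 0 of them had an unadjusted p below 0.05. Between unstimulated knockout and wild-type cells 1 had such a p (17.6% of all genes). Of 7 further phosphatases that act on MAP kinases, Ptpn7, a tyrosine phosphatase of haematopoietic cells that acts on ERK and p38, was lower in knockout cells. It averaged 14.8 ± 3.20 CPM in unstimulated knockout and 43.5 ± 2.25 CPM in unstimulated wild-type cells (log2 fold change -1.56, adjusted p = 1.32e-05). With CpG it averaged 13.4 ± 1.33 CPM in knockout and 37.2 ± 1.48 CPM in wild-type cells (log2 fold change -1.47, adjusted p = 2.51e-05). When predicted transcripts were left out, the log2 fold changes were -1.31 and -1.38, and neither was called (adjusted p = 0.166 and 0.155). Ptprr, a receptor-type phosphatase of ERK, fell with CpG in knockout cells to 2.48 ± 0.343 CPM, against 5.57 ± 0.580 CPM in unstimulated knockout cells (adjusted p = 0.00612, and 0.0509 without both knockout libraries numbered 3).

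Of the kinases that the phosphatases oppose, CpG raised 2 of 10 MAP kinase genes in both genotypes, where 4.4% of all genes were called so. These were Mapk14 (p38 alpha) and Mapk6 (ERK3). Mapk14 averaged 614 ± 118 CPM with CpG and 301 ± 44.3 CPM without it in knockout cells (log2 fold change 1.03, adjusted p = 0.00109), and 490 ± 73.8 CPM and 296 ± 41.2 CPM in wild-type cells (0.73, adjusted p = 0.0196). The wild-type Mapk14 call was lost without library 1 or 2 of the unstimulated or 1 or 3 of the CpG-treated wild-type libraries (adjusted p between 0.0646 and 0.0829), and without both knockout libraries numbered 2 (0.0532). The Mapk6 log2 fold change was 0.67 in knockout cells and 0.68 in wild-type cells. Among 6 MAP kinase kinases, Map2k4, an activator of JNK and p38, fell in both genotypes, with log2 fold changes of -0.55 and -0.42, and Map2k7, an activator of JNK, fell in wild-type cells (-0.40, adjusted p = 0.0444). In wild-type cells the Map2k4 call was lost without the same 4 libraries (adjusted p between 0.0665 and 0.0914) and without both knockout libraries numbered 2 (0.0527), and the Map2k7 call when any library was left out other than unstimulated wild-type library 2 and CpG-treated knockout libraries 2 and 3 (adjusted p up to 0.143) or without both knockout libraries numbered 1 (0.0516) or 2 (0.0534). In knockout cells the Map2k4 call was lost without both numbered 2 (0.0643).

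Of 14 MAP kinase kinase kinases, Map3k8 (Tpl2), which drives ERK downstream of Toll-like receptors in macrophages, had the smallest p with CpG in both genotypes. It averaged 68.7 ± 3.02 CPM with CpG and 15.1 ± 3.11 CPM without it in knockout cells (log2 fold change 2.18, adjusted p = 8.25e-07), and 56.8 ± 7.21 CPM and 15.8 ± 2.91 CPM in wild-type cells (1.84, adjusted p = 6.79e-06). Map3k5 (ASK1) fell in knockout cells (-0.59, adjusted p = 0.00514, and 0.0555 without both knockout libraries numbered 2), and Map3k20 was higher in unstimulated knockout than in unstimulated wild-type cells (0.60, adjusted p = 0.0459). Without predicted transcripts the Map3k20 log2 fold change was 0.33 (adjusted p = 0.373). The Map3k20 call was also lost with library size alone (adjusted p = 0.0633), without both knockout libraries of any number (0.0506 to 0.191), and without unstimulated knockout library 1 or 2, unstimulated wild-type library 1 or 3, or CpG-treated library 1 of either genotype (adjusted p between 0.0529 and 0.211). Of 10 kinases activated by MAP kinases, 6 changed with CpG in knockout cells, 3 in each direction, where 11.6% of all genes were called. In wild-type cells 3 changed, 2 higher and 1 lower, where 6.04% of all genes were called. Mapkapk2, the p38 substrate that stabilises cytokine messenger RNAs, averaged 822 ± 58.8 CPM with CpG and 293 ± 26.3 CPM without it in knockout cells (log2 fold change 1.49), and 633 ± 48.4 CPM and 259 ± 8.44 CPM in wild-type cells (1.29). Rps6ka2, a ribosomal S6 kinase of the ERK pathway, fell in both genotypes (-0.65 and -0.42), and Rps6ka4 (MSK2) rose in both (0.90 and 0.55). In wild-type cells the Rps6ka4 call was lost when any library was left out other than unstimulated wild-type library 3 and the CpG-treated knockout libraries (adjusted p between 0.0528 and 0.179), and without both knockout libraries of any number (0.0556 to 0.0653). Mapkapk3, a close relative of Mapkapk2, averaged 45.5 ± 3.27 CPM in unstimulated knockout and 93.3 ± 5.66 CPM in unstimulated wild-type cells (log2 fold change -1.04, adjusted p = 4.01e-05), and after CpG 60.3 ± 5.81 CPM in knockout and 109 ± 8.47 CPM in wild-type libraries (-0.85, adjusted p = 0.000261). When predicted transcripts were left out, these log2 fold changes were -0.77 and -0.78, and neither was called (adjusted p = 0.0646 and 0.0689).

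Of 13 feedback and target genes of ERK, CpG raised 3 in each genotype, where 7.57% of all genes in knockout and 4.74% in wild-type cells were called higher. Ier3, an immediate early gene, rose by a log2 fold change of 1.49 in knockout cells and 1.23 in wild-type cells, and Spred1, an inhibitor of Ras and ERK signalling, by 1.22 and 1.66. The knockout Spred1 call was lost without CpG-treated knockout library 3 (adjusted p = 0.0639) or unstimulated knockout library 1 (0.0629), and without both knockout libraries numbered 2 (0.0923) or 3 (0.0857). Myc rose in wild-type cells to 7.61 ± 0.639 CPM, against 1.22 ± 0.174 CPM in unstimulated wild-type cells (log2 fold change 2.63, adjusted p = 0.0176), a call lost when any unstimulated wild-type library or CpG-treated wild-type library 2 was left out (adjusted p between 0.061 and 0.0904). It was also called in knockout cells, where it was singled out after its values were seen. The transcription factor gene Fos fell in knockout cells to 149 ± 39.6 CPM, against 287 ± 18.6 CPM in unstimulated knockout cells (log2 fold change -0.94, adjusted p = 0.00895, and 0.0678 without both knockout libraries numbered 1). Between knockout and wild-type cells none of the 13 was called, and DESeq2 called 1 in each treatment. An unadjusted p below 0.05 was held by 3 without CpG (17.6% of all genes) and by 2 with it (18.1% of all genes).

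**Figure D4:**
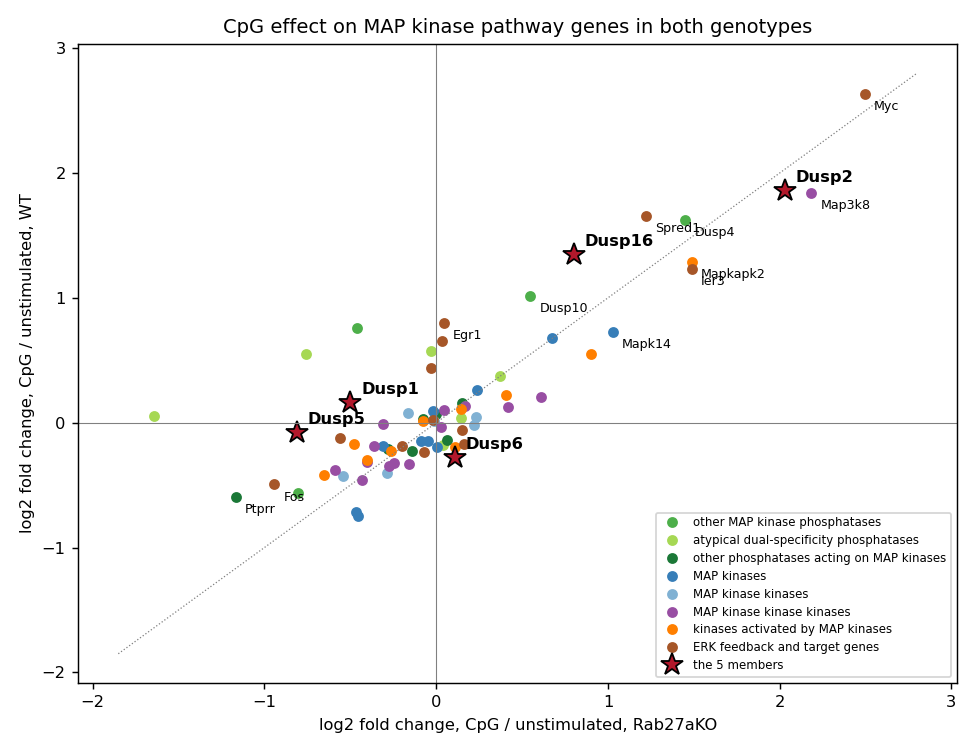
CpG log2 fold change of each tested gene of the MAP kinase pathway in knockout cells (horizontal) and wild-type cells (vertical); points are genes coloured by list, stars are the 5 phosphatase genes, and the dotted line marks equal change. Map3k8 and Mapkapk2 stand far above 0 in both genotypes (log2 2.18 and 1.49 in knockout cells, 1.84 and 1.29 in wild-type cells).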

How the data were processed

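Polyadenylated RNA of 12 neutrophil libraries was sequenced on an Illumina HiSeq4000, per the labels. RSEM 1.2.28, Bowtie2 and build GRCm39 are named in the submitters' processing notes, with no further settings. The deposited files give, per transcript, the authors' expected count, TPM and FPKM values; FPKM was not used. Expected counts of 54716 transcripts, of which 47.4% of values were not whole, were summed by gene ID and rounded to whole numbers. Gene IDs were matched to symbols for 15883 of 15986 genes, and the 103 without a symbol held at most 0.101% of a library's count. Genes were filtered with filterByExpr (minimum count 10, total 15), scaled by TMM (factors 0.900 to 1.093) and fitted in edgeR 4.0.16 (R 4.3.3) with 1 mean per group over all 12 libraries, and tested by the quasi-likelihood test with Benjamini-Hochberg adjustment over 10802 genes. Intervals are Wald intervals from that fit. CPM values are TMM-scaled.

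The scripts were tested on simulated counts. Alternatives were other scalings, filters, models and subsets, DESeq2 1.42.0, blocks of same-numbered libraries, and leaving out libraries. Fits without both knockout libraries of 1 number were chosen after seeing the data. With the same-numbered libraries of a genotype as a block, the CpG effects and their difference were fitted in edgeR with the block as fixed terms. The genotype comparisons were fitted in limma 3.58.1 with it as a random block. Same-numbered wild-type libraries deviated together from their group means (r = 0.28, 0.41 and 0.44, all above 0.1), so their numbers were taken to pair them. For knockout libraries r was 0.62, 0.09 and 0.68, and they were not taken as paired. Between different numbers r was -0.32 to -0.06 in wild-type and -0.64 to 0.03 in knockout cells. The fit behind the calls used no pairing in either genotype, so its CpG tests count the spread between library numbers as error. Blocked fits are given among the alternatives. The members and lists were chosen with earlier results of these data known. Named were the members, up to 3 called genes with the smallest p per list and comparison, Rab27a, Tnf and Nfkbia as checks, and the 3 genes most like each member among those averaging at least 5 CPM; Ergic1 was added because it overlaps Dusp1. Depth was 10928813 to 15513279 estimated counts per library, and intervals rest on the spread between libraries. Members were located with GENCODE M21 annotation and RefSeq tables.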

Additional observations from a re-analysis of the deposited data

How the results depend on the processing

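Of the recomputed member values, 558 kept their direction and their side of the threshold, 32 lost a call, 16 gained one and 14 changed sign; for the other named genes 870 held and 80 lost a call. The causes of these changes were not tested. Dusp16 with CpG in wild-type cells and Dusp1 in unstimulated knockout against wild-type cells kept their calls under all alternatives run. With CpG in knockout cells, Dusp1 was called with library size alone (adjusted p = 0.0382), a filter of 1 CPM (0.0471), no filter (0.0397), only the libraries compared (0.0144), a replicate block by number (0.0167), a replicate block of the same-numbered libraries of a genotype (0.000635) and DESeq2 (0.0223), and Dusp16 lost its call with library size alone (0.0927), curated transcripts only (0.0832), only the libraries compared (0.0813) and the replicate block by number (0.0526). Dusp2 with CpG in wild-type cells lost its call with library size alone (0.0603) and with curated transcripts only (0.097). Dusp16 between unstimulated knockout and wild-type cells was called with no filter (0.0416), only the libraries compared (0.0374) and DESeq2 (0.0301). The member values that changed sign were not called either way. With each library left out in turn, Dusp6 ranged from -0.17 to 0.32 with CpG in knockout cells, Dusp1 from -0.038 to 0.26 and Dusp5 from -0.25 to 0.16 with CpG in wild-type cells, Dusp2 from -0.056 to 0.64 and Dusp6 from -0.11 to 0.12 between unstimulated knockout and wild-type cells, and the difference in the Dusp2 response from -0.19 to 0.51. Without both knockout libraries numbered 3, the unstimulated knockout to wild-type values of Dusp2 and Dusp6 were -0.079 and 0.092, and without both numbered 2 Dusp6 with CpG in knockout cells was -0.092.

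Members called numbered 1 with CpG in wild-type cells with library size alone and with curated transcripts only, and 1 between CpG-treated knockout and wild-type cells without both knockout libraries numbered 3; without both numbered 2 they numbered 0 and 1 with CpG in knockout and wild-type cells and 1 between unstimulated genotypes; with each library left out they ranged from 1 to 4 and from 1 to 2 with CpG in knockout and wild-type cells, and from 1 to 3 and from 0 to 1 between genotypes without and with CpG. Over all genes, the replicate block within genotype called 2591 with CpG in knockout cells (1257 as reported), 1824 in wild-type cells (652) and 13 for the difference between genotypes (0, and 3 by DESeq2). Curated transcripts alone gave 425 with CpG in wild-type cells, 283 between unstimulated knockout and wild-type cells (513) and 227 between CpG-treated ones (423), where DESeq2 gave 782 and 734 and only the libraries compared gave 253 after CpG. Without both knockout libraries numbered 1 the unstimulated count was 341, and without both numbered 3 the count after CpG was 824; without both numbered 2 the counts were 600 with CpG in knockout cells and, between genotypes, 300 without and 250 with CpG. With each library left out the counts ranged from 818 to 1347 and from 425 to 758 with CpG in knockout and wild-type cells, and from 278 to 604 and from 234 to 699 between genotypes without and with CpG. The replicate block by number or within genotype changed no call of a member in wild-type cells. Same-numbered knockout libraries were not taken as paired, because 1 of 3 pairs missed the rule of an r above 0.1. The blocked knockout values rest on that pairing. In the pair that missed the rule r was 0.09, against 0.62 and 0.68 in the others and -0.64 to 0.03 between knockout libraries of different numbers. Erythroid sums of that pair, numbered 2, were 1650 and 1820 CPM. They were 521 and 438 CPM in the pair numbered 1, and 6060 and 5960 CPM in the pair numbered 3. Same-numbered knockout libraries were thus alike in these sums, and the check does not settle whether they are paired. Dusp2 had the fewest counts of the members, 7 to 118 per library.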
